A study of Homo sapiens with 6 samples.

Results

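Gene expression was compared between 2 states of one knockdown on GeneChip whole-transcript arrays: Du145 cells in which TSC2 had been knocked down (shTSC2, 2 arrays), and Du145 cells labelled as adapted from the knockdown (shTSC2-adapted, 2 arrays). These 4 arrays are part of a series of 6, and the 2 control arrays are given beside them for their levels. Du145 is an established human prostate carcinoma cell line. The knockdown was made with a lentivirus carrying shTSC2. Every group was kept in high-glucose DMEM with fetal bovine serum and at 1% O2, with RNA taken after 24 h of hypoxia, so low oxygen is common to all 3 groups. What the adaptation consisted of and how long it lasted is not given in the labels, nor whether the adapted cells were a clone or a pool, nor whether control cells received a virus. Nothing in them ties the arrays of a group to separate cultures. The p-values below therefore measure array-to-array spread, and that spread may be only technical.

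The comparison covered 18417 genes, each read from 1 of the 33297 probe sets (1 gene symbol, highest mean over the arrays). Levels below are log2 intensities, and differences are shTSC2-adapted minus shTSC2 on the log2 scale, so that 1 is a 2-fold change. Standard errors (SE) and adjusted p-values are those of a limma fit to all 6 arrays with Benjamini-Hochberg adjustment over the 18417 genes. A gene is called at an adjusted p under 0.05. The 2 shTSC2-adapted arrays correlated at r = 0.993 across genes and the 2 shTSC2 arrays at r = 0.990, against 0.977 to 0.982 for pairs of arrays across the groups (genes are not independent replicates). Keratins KRT8 and KRT18, which epithelial cells express, read 11.22 to 11.50 on all 6 arrays. The androgen-regulated KLK2 and KLK3 read 5.01 to 5.60 and the leukocyte gene PTPRC 3.49 to 3.58, beside a lower quartile over all probe sets of at most 4.40 on any array.

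TSC2 and its partner TSC1 form a complex that switches off the small GTPase RHEB, and RHEB in turn activates the kinase complex mTORC1. mTORC1 stimulates protein, lipid and nucleotide synthesis, and it drives lipid genes through the SREBP factors and amino acid genes through ATF4. Low oxygen normally restrains mTORC1 by way of the TSC complex and its activator DDIT4 (REDD1). Cells that lose TSC2 therefore keep the pathway on where other cells would lower it.

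TSC2 itself stood at a similar level in both groups. It read 6.67 and 6.55 in shTSC2, 6.54 and 6.48 in shTSC2-adapted, and 7.52 and 7.59 in control. Both adapted values lay just under both shTSC2 values, and all 4 lay below control. The difference was -0.10 (SE 0.10, 95% interval -0.33 to 0.13, adjusted p = 0.564), which puts the adapted level at 93.3% of the shTSC2 level. This interval bounds the difference and does not show that the levels were equal. Against control, TSC2 stood at 48.5% in shTSC2-adapted (adjusted p = 0.0241) and at 51.9% in shTSC2 (adjusted p = 0.00102), 2 comparisons that share the control arrays.

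More genes were higher than lower in shTSC2-adapted. Of the 18417 genes, 1703 (9.25%) were called higher and 597 (3.24%) lower, and 309 of the former and 61 of the latter differed by at least 2-fold. For each of the 2300 called genes both adapted arrays lay on the same side of both shTSC2 arrays. Under quantile normalization of the arrays the split was 1345 higher and 942 lower, or 58.8% higher against 74.0% in the values as deposited. Set beside these, shTSC2 differed from control in 3833 genes (20.8%) and shTSC2-adapted from control in 48 (0.261%). These 3 comparisons share arrays, so nothing is read from their overlap. The counts depended on the arrays fitted. Fewer genes were called in each direction when either shTSC2-adapted array was left out. With only the 4 arrays compared, 893 genes were called higher and 220 lower. Leaving out 1 control array gave the same result as leaving out both, since a lone control array adds nothing to the estimate of spread.

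**Figure D1:**
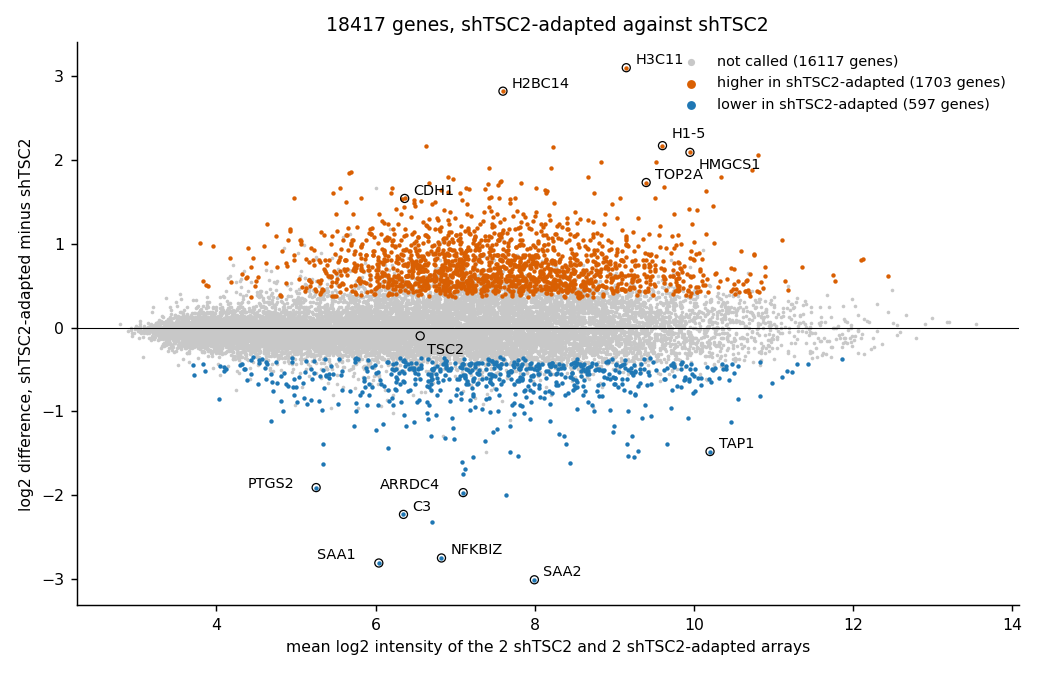
Each point is 1 of 18417 genes; the x axis is its mean log2 intensity over the 4 arrays compared and the y axis its log2 difference, shTSC2-adapted minus shTSC2, with 1703 genes called higher (orange) and 597 called lower (blue). Histone genes H3C11 and H2BC14 lie at the top (3.10 and 2.82), SAA2, SAA1 and NFKBIZ at the bottom (-3.01, -2.81 and -2.75), and TSC2 near 0 (-0.10).

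The 36 gene lists described below were chosen with earlier results of these data known. Their counts are given beside the shares over all genes (9.25% higher, 3.24% lower, median difference -0.02) and are descriptions without a test of the list. Single genes named outside the rule given with the processing were chosen after their values were seen. The lists with the largest shares of higher members were those of mitosis, sterol synthesis, fatty acid synthesis, tRNA synthetases and histones. Those with the largest shares of lower members were class I antigen processing, acute phase genes, the NF-kB pathway and immediate early genes. The list of immediate early genes includes MAPK feedback genes.

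**Figure D2:**
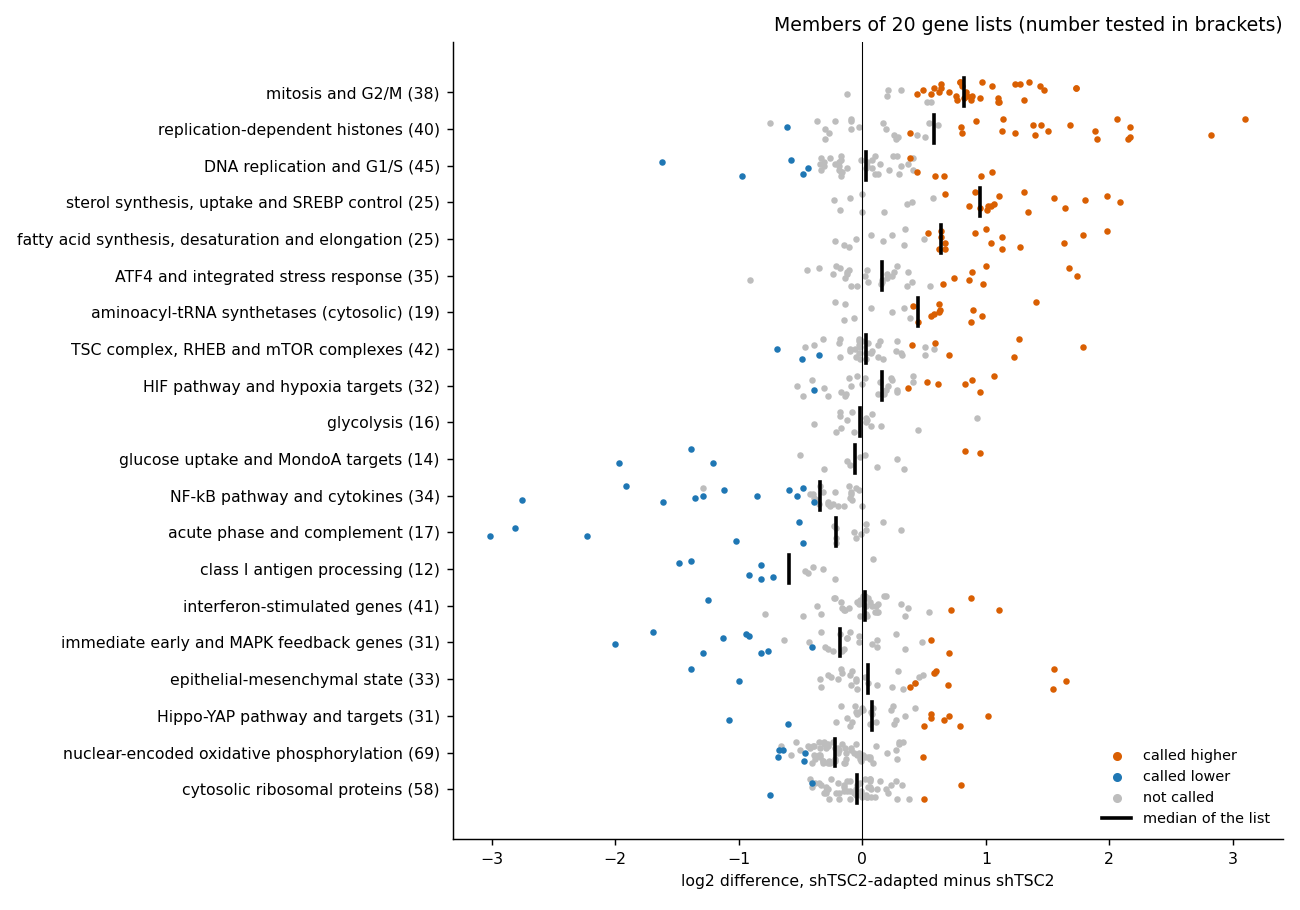
Each point is a member of 1 of 20 gene lists, placed by its log2 difference (x axis, shTSC2-adapted minus shTSC2); orange and blue points were called higher and lower, grey points were not called, and the black bar is the list's median. Mitosis (median 0.82), sterol (0.95) and fatty acid (0.64) genes lie mostly to the right, class I (-0.59) and NF-kB genes (-0.34) to the left, and glycolysis genes around 0 (-0.02).

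Most genes of mitosis rose. Of 38 tested genes of mitosis and the G2/M transition 32 were called higher and 0 lower by limma (35 higher and 0 lower at an unadjusted p under 0.05), with a median difference of 0.82. ASPM, a spindle pole protein, read 7.07 and 6.86 in shTSC2 and 8.90 and 8.49 in shTSC2-adapted, with 9.28 and 9.52 in control. The adapted arrays thus lay above both shTSC2 arrays and below both control arrays, and the rise over shTSC2 was 1.73 (SE 0.16, adjusted p = 0.00214). TOP2A, the topoisomerase that untangles chromosomes before they separate, read 8.91 and 8.16 in shTSC2 against 10.30 and 10.23, and 10.80 and 10.96 in control (difference 1.73, SE 0.22, adjusted p = 0.00425). PLK1, a kinase that drives entry into and passage through mitosis, read 7.88 and 7.62 against 8.98 and 9.15, and 10.20 and 10.13 in control. It rose by 1.31 over shTSC2 (SE 0.12, adjusted p = 0.00201). The same order, shTSC2 lowest, adapted in the middle and control highest, held for DLGAP5, which organises spindle microtubules (1.47, adjusted p = 0.00576), and for BUB1B of the spindle checkpoint (1.24, adjusted p = 0.00111). Over the list, the median difference from the control mean was -1.46 and -1.43 in shTSC2, against -0.54 and -0.64 in shTSC2-adapted. In RNA from bulk cells, fewer cells in mitosis and less RNA per cell cannot be told apart.

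FOXM1, the transcription factor of many of these genes, read 8.30 and 8.24 in shTSC2 and 8.76 and 9.07 in shTSC2-adapted, a rise of 0.64 (adjusted p = 0.0169) that lost its call without shTSC2-adapted array 2 or a control array (adjusted p up to 0.0699). Members that did not pass were CDC25C (0.56), KIF20A (0.52), UBE2C (0.31), BIRC5 (0.21), KIF2C (0.20) and PTTG1 (-0.12). Leaving out 1 array at a time, between 20 (without shTSC2-adapted array 2) and 31 members of the list were called higher.

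Promoter sequences were read for the genes of these lists. RefSeq windows (GRCh38.p14) from 250 bases before to 50 bases after the gene start were matched by symbol for 14239 of the 18417 genes, taking the first window listed for a gene. TTTGAA on either strand, the letters of the cell cycle homology region bound by the DREAM and MuvB-FOXM1 complexes, was found in 23 of 32 mitosis windows (71.9%), against 11.9% of all windows. All 23 belonged to the 28 called members with a window, and the 4 members with a window that were not called had none. The share was 10 of 36 (27.8%) for histones, 2 of 40 (5.0%) for genes of DNA replication and 14.4% for all genes called higher. CCAAT, the site of NF-Y, on either strand was found in 24 of 32 mitosis windows, against 36.3% of all windows. Windows of 2 genes that rose, ASPM and PLK1, and of CCNE1, a cell cycle gene that fell, are printed with matches to TTTGAA and CCAAT on either strand in capitals. The ASPM window is chr1:197146620-197146919 on the minus strand, that of PLK1 chr16:23678639-23678938 on the plus strand and that of CCNE1 chr19:29811741-29812040 on the plus strand, each 5′ to 3′ along the gene.
ASPM: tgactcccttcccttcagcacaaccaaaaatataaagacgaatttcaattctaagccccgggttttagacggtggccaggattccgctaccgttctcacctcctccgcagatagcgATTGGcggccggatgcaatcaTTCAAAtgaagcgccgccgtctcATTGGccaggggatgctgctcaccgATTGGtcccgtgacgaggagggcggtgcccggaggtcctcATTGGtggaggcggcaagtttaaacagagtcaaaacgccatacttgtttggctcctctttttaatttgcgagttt
PLK1: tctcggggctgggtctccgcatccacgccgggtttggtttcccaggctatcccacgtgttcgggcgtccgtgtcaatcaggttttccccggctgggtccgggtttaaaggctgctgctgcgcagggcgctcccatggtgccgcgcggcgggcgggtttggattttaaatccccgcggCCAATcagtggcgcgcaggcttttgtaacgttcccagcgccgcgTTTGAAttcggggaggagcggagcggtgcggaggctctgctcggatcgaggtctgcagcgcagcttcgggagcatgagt
CCNE1: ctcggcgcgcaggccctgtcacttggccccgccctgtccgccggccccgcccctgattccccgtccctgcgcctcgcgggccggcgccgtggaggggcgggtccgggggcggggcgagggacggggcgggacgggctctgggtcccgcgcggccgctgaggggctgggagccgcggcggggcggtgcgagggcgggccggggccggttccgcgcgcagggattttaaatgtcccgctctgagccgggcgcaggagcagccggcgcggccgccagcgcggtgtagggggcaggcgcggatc
The ASPM window held 1 match to TTTGAA and 4 to CCAAT, the PLK1 window 1 of each and the CCNE1 window 0 of either, and the matches did not overlap. A match describes letters and not a bound site, and no match says only that these letters are not in this window.

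Replication-dependent histones, which package newly made DNA in S phase and whose messages lack a poly(A) tail, held the largest rises of single genes. Of 40 tested, 20 were called higher and 1 lower (H3C12, which fell by 0.61, adjusted p = 0.0282), with a median of 0.58. H3C11 read 8.11 and 7.09 in shTSC2, 11.12 and 10.28 in shTSC2-adapted and 11.18 and 11.30 in control, a rise of 3.10 over shTSC2 (SE 0.36, adjusted p = 0.00345). H2BC14 read 6.19 on both shTSC2 arrays, 9.10 and 8.92 in shTSC2-adapted and 10.09 and 9.91 in control (2.82, SE 0.11, adjusted p = 0.000322). Neither gene's adapted arrays came near the shTSC2 arrays. The linker histone H1-5 went from 8.85 and 8.19 to 10.87 and 10.51 (2.17, adjusted p = 0.00251), H2BC4 from 5.70 and 5.40 to 7.89 and 7.55 (2.17, adjusted p = 0.00111), and H4C2 from 7.64 and 6.87 to 9.29 and 9.03 (1.90, adjusted p = 0.00380). H2AC4 rose by 2.15 (adjusted p = 0.0115) and lost its call without shTSC2-adapted array 1 (adjusted p = 0.0821). The rises were unequal: 29 of the 40 stood above 0, and those below it included H2AC17 (-0.75, adjusted p = 0.182) and H3C10 (-0.27). Histone genes are near-identical copies, and probes may not tell them apart, so which copy rose is uncertain. The median of the list was 1.38 when dim genes were left out, with 23 of the 40 remaining.

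Genes of DNA synthesis did not move one way. Of 45 tested genes of DNA replication and the G1/S transition 6 were called higher and 5 lower, with a median of 0.03 (2 to 5 higher and 2 to 6 lower with 1 array left out). CCNE1, cyclin E1, which starts S phase with CDK2, read 9.36 and 9.14 in shTSC2 against 7.39 and 7.87 in shTSC2-adapted and 7.62 and 7.30 in control. Its adapted values overlapped those of control and lay well below shTSC2, and it fell by 1.62 (SE 0.18, adjusted p = 0.00332). UNG, which removes uracil from DNA, fell by 0.97 (adjusted p = 0.00396) and the activator E2F2 by 0.58 (adjusted p = 0.0150, 0.0865 without shTSC2-adapted array 1). CDC7, a kinase that fires replication origins, rose from 7.07 and 6.99 to 8.32 and 7.84 (1.05, adjusted p = 0.00683), and the primase subunit PRIM1 by 0.96 (adjusted p = 0.00681). Among 18 CDK inhibitors and p53 targets 1 was called higher and 4 lower. PLK2, a stress-induced kinase, fell from 10.05 and 9.99 to 8.58 and 8.37 (-1.54, SE 0.12, adjusted p = 0.00111). The adapted readings of PLK2 lay below the control arrays at 9.02 and 9.26, but the difference from control did not pass. CDKN2B, an inhibitor of CDK4 and CDK6, fell by 0.90 (adjusted p = 0.00671, 0.0502 without shTSC2-adapted array 1), while MDM2 rose by 0.64 (adjusted p = 0.0128, 0.0752 without shTSC2-adapted array 1). The targets CDKN1A (-0.30) and GDF15 (0.08) did not pass.

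Enzymes of the cholesterol pathway were higher in shTSC2-adapted at early and at late steps. Of 25 tested genes of sterol synthesis, uptake and SREBP control, 16 were called higher and 0 lower by limma (19 and 0 at an unadjusted p under 0.05), with a median of 0.95. HMGCS1, which makes HMG-CoA, read 9.0 and 8.81 in shTSC2, 11.37 and 10.62 in shTSC2-adapted and 10.05 and 10.25 in control. Both adapted arrays lay above all 4 others, and the difference from shTSC2 was 2.09 (SE 0.23, adjusted p = 0.00288). The mevalonate kinase MVK read 6.38 and 6.30 against 7.77 and 7.54, with control at 7.25 and 7.28 (1.31, SE 0.11, adjusted p = 0.00127). IDI1, the isomerase that follows in the pathway, rose by 1.01 (adjusted p = 0.00360). SQLE, which commits squalene to sterols, read 8.44 and 8.62 against 10.75 and 10.28, with control at 10.15 and 10.23 (1.98, SE 0.16, adjusted p = 0.00111). Late steps rose too: NSDHL by 1.64 (adjusted p = 0.00111), MSMO1 by 1.55 (adjusted p = 0.00236) and LSS, which closes the sterol rings, by 1.34 (adjusted p = 0.0105). DHCR7, the last enzyme of one branch, went from 9.85 and 9.03 to 11.51 and 10.98 with control at 10.44 and 10.58 (1.80, adjusted p = 0.00744, 0.0543 without shTSC2-adapted array 1). Adapted array 1 read higher than adapted array 2 for each of these genes whose arrays are given.

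The SREBP factors themselves did not pass. SREBF2, the factor that drives sterol genes, read 8.48 and 8.42 in shTSC2 and 8.55 and 8.72 in shTSC2-adapted (0.18, adjusted p = 0.316), and SREBF1 6.61 and 6.58 against 6.81 and 7.11 (0.36, adjusted p = 0.102). INSIG1, a target of SREBP that also holds SREBP back in the endoplasmic reticulum, rose by 1.11 (adjusted p = 0.0105). The sterol exporter ABCA1 differed by 0.00. Against control the median of the list was 0.41 in shTSC2-adapted and -0.35 in shTSC2. No member was among the 48 genes called between shTSC2-adapted and control.

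CCAAT was found in 15 of 22 sterol windows (68.2%), against 36.3% of all windows, and in 11 of the 14 windows of called members. The share was 9 of 23 (39.1%) for the fatty acid list described next, with 4 of 13 called members, and 20 of 40 for genes of DNA replication. It was 32 of 36 (88.9%) for histones, the same for called and for other histones. The sterol regulatory element spelled TCACNCCAC was found in 1 of the 22 windows and in 1.1% of all windows. Windows of HMGCS1 (chr5:43313363-43313662, minus strand) and DHCR7 (chr11:71448344-71448643, minus strand), which act at the start and the end of the pathway, are printed with CCAAT on either strand in capitals.
HMGCS1: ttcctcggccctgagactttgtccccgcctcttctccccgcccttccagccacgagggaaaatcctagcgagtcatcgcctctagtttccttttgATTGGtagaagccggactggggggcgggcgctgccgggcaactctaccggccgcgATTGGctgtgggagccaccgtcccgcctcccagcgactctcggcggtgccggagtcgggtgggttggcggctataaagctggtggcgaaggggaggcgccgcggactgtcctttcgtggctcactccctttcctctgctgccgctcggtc
DHCR7: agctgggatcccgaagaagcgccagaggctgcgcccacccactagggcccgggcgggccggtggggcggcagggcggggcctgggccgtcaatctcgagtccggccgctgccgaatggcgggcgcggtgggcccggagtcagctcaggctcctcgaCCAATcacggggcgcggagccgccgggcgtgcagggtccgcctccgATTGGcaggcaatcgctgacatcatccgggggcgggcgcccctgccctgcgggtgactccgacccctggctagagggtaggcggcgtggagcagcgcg
Each of these windows held 2 matches to CCAAT and 0 to TCACNCCAC.

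Fatty acid genes rose with the sterol genes. Of 25 tested genes of fatty acid synthesis, desaturation and elongation, 15 were called higher and 0 lower by limma (18 and 0 at an unadjusted p under 0.05), with a median of 0.64. ACLY, which makes cytosolic acetyl-CoA from citrate, read 9.60 and 9.08 in shTSC2, 11.01 and 10.92 in shTSC2-adapted and 10.81 and 10.89 in control (1.63, SE 0.16, adjusted p = 0.00252). The elongase ELOVL6 read 6.17 and 5.86 against 8.12 and 7.50, with control at 7.47 and 7.78 (1.79, SE 0.22, adjusted p = 0.00380). Both genes' adapted arrays cleared the shTSC2 arrays and reached the control range or above it. ACACA, which makes malonyl-CoA, went from 6.95 and 7.10 to 8.17 and 8.14 (1.13, SE 0.10, adjusted p = 0.00155). The adapted readings of ACACA lay above control at 7.76 and 7.80, but that difference did not pass. FASN, the fatty acid synthase, read 8.42 and 8.29 against 8.93 and 9.05 with control at 8.14 and 8.30, and here shTSC2 was not below control (0.64, adjusted p = 0.0112, 0.0634 without shTSC2-adapted array 2). ACSS2, which makes acetyl-CoA from acetate, read 8.33 and 7.35 against 10.33 and 9.31 (1.98, SE 0.38, adjusted p = 0.0178). Its shTSC2 and adapted arrays were each about 1 log2 unit apart within the group, and its call was lost without shTSC2-adapted array 1 or either control array (adjusted p up to 0.0906). SCD, the main desaturase, did not pass (0.24), nor did the fatty acid oxidation gene CPT1A (0.50).

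**Figure D3:**
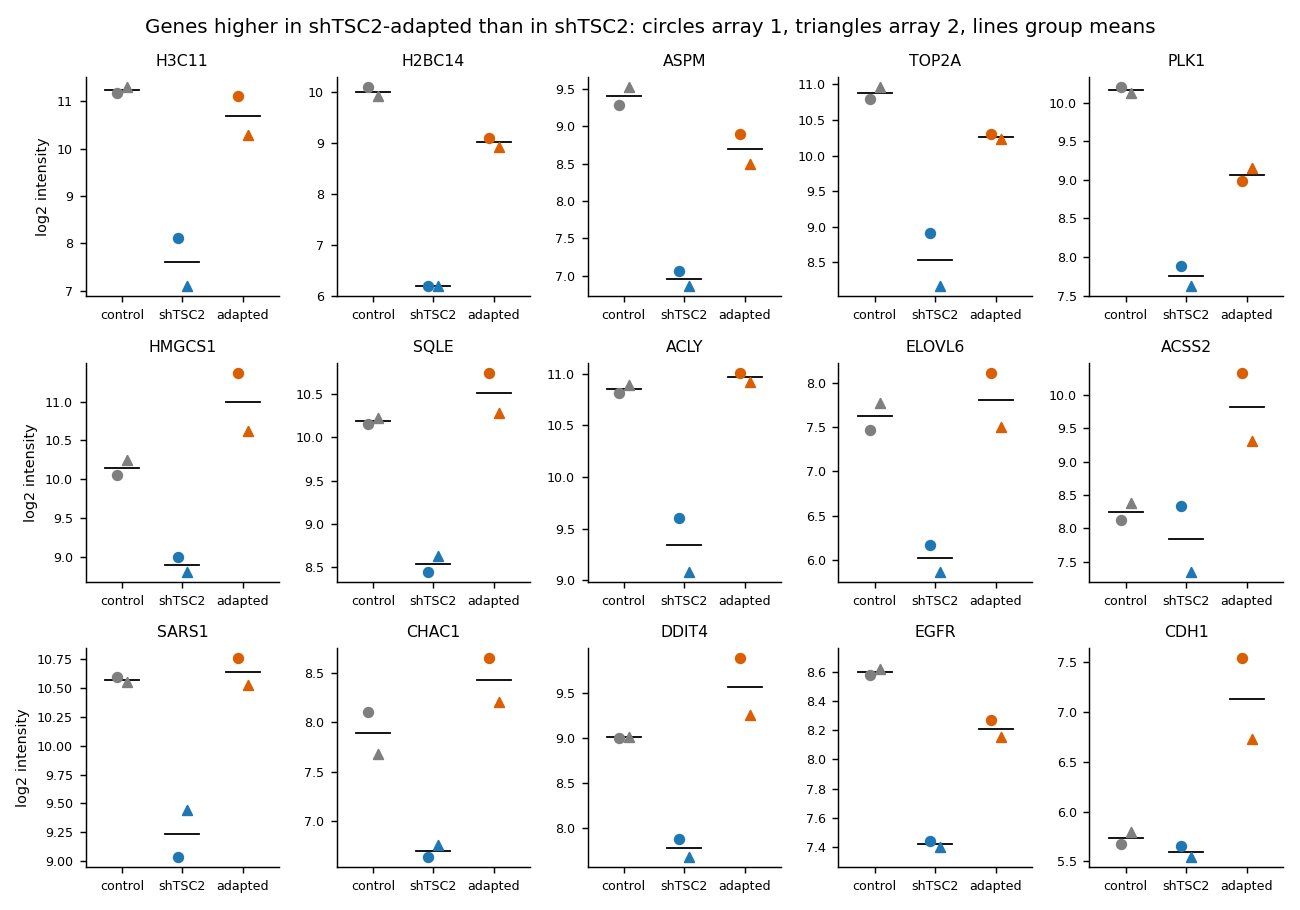
Log2 intensity on each of the 6 arrays for 15 genes that were higher in shTSC2-adapted than in shTSC2 (control grey, shTSC2 blue, shTSC2-adapted orange; circles are array 1, triangles array 2, lines group means, and y axes differ between genes). The adapted mean stays below the control mean for the histone and mitosis genes of the top row and lies above it for HMGCS1 and ACLY, and CDH1 stands at 7.54 and 6.73 against 5.54 to 5.80 on the other 4 arrays.

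Genes of amino acid supply rose in part. ATF4, the transcription factor of amino acid shortage and a target of mTORC1, read 9.29 and 9.39 in shTSC2, 10.41 and 10.27 in shTSC2-adapted and 10.61 and 10.58 in control (1.00, SE 0.10, adjusted p = 0.00249). A second probe set of ATF4 gave 0.41 (adjusted p = 0.139). Of 35 tested genes of the ATF4 and integrated stress response 8 were called higher and 0 lower by limma (12 and 3 at an unadjusted p under 0.05), with a median of 0.16. CHAC1, which degrades glutathione, rose from 6.63 and 6.76 to 8.65 and 8.21, and control read 8.10 and 7.68 (1.74, SE 0.18, adjusted p = 0.00274). SLC7A11, the cystine importer, rose from 6.82 and 7.55 to 9.18 and 8.53 (1.67, adjusted p = 0.00970, 0.0590 without shTSC2-adapted array 1). Well-known members that did not pass were ASNS (0.37), PSAT1 (0.24), PHGDH (0.05) and DDIT3 (0.04), and ATF3 stood at -0.91. Without shTSC2-adapted array 1 the list's count was 5.

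Cytosolic tRNA synthetases, which load amino acids onto tRNAs, were called higher in 11 of 19 cases and lower in 0 by limma (14 and 0 at an unadjusted p under 0.05), with a median of 0.45. SARS1 for serine read 9.03 and 9.44 in shTSC2 and 10.76 and 10.53 in shTSC2-adapted, with control at 10.60 and 10.55 (1.41, SE 0.15, adjusted p = 0.00284). AARS1 for alanine rose by 0.88 (adjusted p = 0.00772, 0.0561 without shTSC2-adapted array 1). RARS1 read 8.43 and 9.20 against 9.79 on both adapted arrays (0.97, adjusted p = 0.0290, up to 0.132 with 1 array left out). The 11 calls fell to 1 without shTSC2-adapted array 1, to 3 without shTSC2-adapted array 2 and to 5 without either control array, while the median stayed between 0.42 and 0.50. TGATGNAA on either strand, the composite element read by ATF4 and CEBP factors, was found in 6 of 16 synthetase windows (37.5%), against 2.5% of all windows and 2.0% of windows of genes called higher. It was found in 4 of 9 windows of called synthetases and 2 of 7 of the others. The window of AARS1 (chr16:70289457-70289756, minus strand) and that of CHAC1 (chr15:40953221-40953520, plus strand) each held 1 match, in capitals.
AARS1: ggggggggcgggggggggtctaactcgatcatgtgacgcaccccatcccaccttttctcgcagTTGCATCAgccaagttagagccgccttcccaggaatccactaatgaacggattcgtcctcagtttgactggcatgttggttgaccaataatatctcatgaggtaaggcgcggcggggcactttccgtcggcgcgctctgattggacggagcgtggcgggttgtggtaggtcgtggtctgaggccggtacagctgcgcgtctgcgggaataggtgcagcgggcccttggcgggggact
CHAC1: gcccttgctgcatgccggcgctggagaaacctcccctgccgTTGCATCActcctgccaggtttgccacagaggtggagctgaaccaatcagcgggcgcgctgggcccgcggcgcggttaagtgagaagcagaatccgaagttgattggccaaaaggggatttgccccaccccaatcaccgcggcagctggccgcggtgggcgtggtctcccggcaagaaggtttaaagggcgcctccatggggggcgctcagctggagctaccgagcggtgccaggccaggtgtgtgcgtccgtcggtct
Of the ATF4 list 27 of 35 members had a window, and 6 of the 27 held a match (22.2%): 1 of 6 called members, which was CHAC1, and 5 of 21 that were not called. With under 80% of the members matched to a window, that share is void as a check of the list.

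Other stress genes moved in both directions. Among 21 NRF2 targets 5 were called higher and 1 lower (1 to 6 higher with 1 array left out): the redox enzyme ME1, which supplies NADPH for lipid synthesis, rose by 0.91 (adjusted p = 0.00321), while NQO1 fell by 0.53 (adjusted p = 0.0180, up to 0.0876 with 1 array left out). Of 27 genes of the unfolded protein response and chaperones 2 were called higher and 5 lower (1 to 6 lower with 1 array left out). DNAJB9, an ER co-chaperone, fell from 7.91 and 7.74 to 7.05 and 6.67, towards control at 6.52 and 6.39 (-0.97, adjusted p = 0.00719). The main ER chaperone HSPA5 differed by 0.03. Of 12 polyamine genes 2 rose and 2 fell (0 to 1 each way with 1 array left out). SAT1, which acetylates polyamines for export, read 9.76 and 10.10 against 8.97 and 7.84 (-1.53, SE 0.35, adjusted p = 0.0321, up to 0.0972 with 1 array left out).

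Within the mTOR pathway itself most genes did not pass. The shares called were 14.3% higher and 7.14% lower, against 9.25% and 3.24% of all genes. Of 42 tested genes of the TSC complex, RHEB and the mTOR complexes, 6 were called higher and 3 lower, with a median of 0.03 (4 to 6 higher and 0 to 2 lower with 1 array left out). DDIT4, the hypoxia-induced activator of the TSC complex, read 7.88 and 7.68 in shTSC2, 9.88 and 9.25 in shTSC2-adapted and 9.0 and 9.01 in control. Both adapted arrays lay above all others, 1.79 above shTSC2 (SE 0.19, adjusted p = 0.00288), but the difference from control did not pass. PDCD4, a brake on translation that S6 kinase marks for destruction, rose from 7.28 and 7.39 to 8.63 and 8.59 (1.27, SE 0.10, adjusted p = 0.00111). EIF4B, a translation initiation factor, rose by 1.23 (adjusted p = 0.00370), and its other probe sets gave 0.71 and 1.34. RRAGD, one of the Rag GTPases that bring mTORC1 to the lysosome, read 7.88 and 7.82 in shTSC2, 8.46 and 8.64 in shTSC2-adapted and 7.66 and 7.78 in control (0.70, adjusted p = 0.00758). LAMTOR4, of the Ragulator complex on the lysosome, fell by 0.69 (adjusted p = 0.0174, up to 0.0920 with 1 array left out). TSC1 (0.00), MTOR (0.17, adjusted p = 0.411) and RHEB (0.28, adjusted p = 0.185) did not pass.

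The receptors EGFR and INSR rose, while the EGF receptor ligands HBEGF and EREG fell. EGFR read 7.44 and 7.40 in shTSC2, 8.27 and 8.15 in shTSC2-adapted and 8.58 and 8.62 in control (0.79, SE 0.09, adjusted p = 0.00377). PIK3CB, a catalytic subunit of PI3 kinase, rose from 7.62 and 7.76 to 8.86 and 8.98 (1.23, SE 0.12, adjusted p = 0.00252), and INSR, the insulin receptor, by 0.60 (adjusted p = 0.0174, 0.0893 at most with 1 array left out). The ligand HBEGF fell from 10.52 and 10.40 to 9.23 and 9.53, with control at 9.56 and 9.31 (-1.08, SE 0.14, adjusted p = 0.00435). EREG, another ligand, fell from 9.23 and 9.26 to 8.67 and 7.82 and stayed above control at 7.27 and 7.34. It fell by 1.00 (adjusted p = 0.0351, 0.0850 at most with 1 array left out). The insulin receptor substrate IRS2 fell by 0.60 (adjusted p = 0.0211, 0.102 at most with 1 array left out) and IRS1 differed by -0.01. Over the list of 23 genes 4 were called higher and 4 lower (2 to 6 and 2 to 3 with 1 array left out).

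Most hypoxia genes did not pass, and no glycolysis gene did. The shares of hypoxia genes called were 21.9% higher and 3.12% lower, against 9.25% and 3.24% of all genes. Of 32 tested genes of the HIF pathway 7 were called higher and 1 lower, with a median of 0.16 (3 to 8 higher with 1 array left out). HIF1A read 8.18 and 8.60 in shTSC2 and 8.78 and 8.81 in shTSC2-adapted (0.41, adjusted p = 0.119), and EPAS1, which encodes HIF-2 alpha, 6.72 on both shTSC2 arrays against 7.10 and 7.08 (0.37, adjusted p = 0.0429, 0.156 at most with 1 array left out). The call of EPAS1 was also lost under quantile normalization and median centring. VEGFA differed by -0.09, PDK1 by 0.14 and LDHA by 0.45 without a call. Differences over the HIF pathway list ran from -0.53 to 1.07. Of 16 glycolysis genes 0 were called in either direction by limma (2 higher and 1 lower at an unadjusted p under 0.05), and the largest difference was that of ALDOC, at 7.56 and 6.44 against 7.84 and 8.03 (0.93, adjusted p = 0.0971). ACGTG on either strand, the core of the hypoxia response element, was found in 10 of 26 HIF pathway windows (38.5%) and 8 of 16 glycolysis windows, against 24.0% of all windows.

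Glucose transporters and the glucose-sensing arrestins went opposite ways. SLC2A1, the main glucose transporter, read 9.50 and 9.56 in shTSC2, 10.46 and 10.27 in shTSC2-adapted and 10.90 and 10.84 in control (0.83, SE 0.10, adjusted p = 0.00395). SLC2A3, a transporter of high affinity, read 8.88 and 9.67 against 10.36 and 10.10, with control far lower at 6.54 and 6.81. Its difference from shTSC2 was 0.95 (SE 0.24, adjusted p = 0.0441), a call lost under quantile normalization, median centring and the loss of single arrays (adjusted p up to 0.214). ARRDC4, an arrestin that MondoA induces when glucose phosphates build up and that limits glucose uptake, fell from 8.16 and 8.01 to 6.14 and 6.09, beside control at 6.30 and 6.15 (-1.97, SE 0.10, adjusted p = 0.00106). KLF10, a zinc finger factor, fell from 9.98 and 9.74 to 8.43 and 8.50 (-1.39, SE 0.11, adjusted p = 0.00111). TXNIP, the related arrestin, read 8.51 and 7.75 against 7.22 and 6.61 (-1.21, SE 0.28, adjusted p = 0.0303, up to 0.145 with 1 array left out). MLXIP, which encodes MondoA, differed by -0.02, and over the list of 14 genes 2 were called higher and 3 lower.

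Part of the inflammatory genes fell in shTSC2-adapted, while most members of the NF-kB and acute phase lists did not pass. Of 34 tested genes of the NF-kB pathway and its cytokines 0 were called higher and 11 lower by limma (0 and 16 at an unadjusted p under 0.05), with a median of -0.34. NFKBIZ, an inducible partner of NF-kB, read 8.43 and 7.98 in shTSC2, 5.62 and 5.28 in shTSC2-adapted and 5.47 and 5.55 in control. The adapted arrays overlapped control and lay far below shTSC2 (-2.75, SE 0.17, adjusted p = 0.00109). PTGS2, the inducible cyclooxygenase, read 6.35 and 6.07 against 4.27 and 4.32, with control at 4.20 and 4.26 (-1.91, SE 0.12, adjusted p = 0.00106). The adapted and control readings of PTGS2 lay below the 4.40 quartile given above, which leaves the size of its fall and its likeness to control uncertain. The chemokine CXCL1 fell from 8.37 and 7.42 to 6.48 and 6.08 (-1.61, SE 0.29, adjusted p = 0.0135, up to 0.0816 with 1 adapted array left out). TNFAIP3, a feedback inhibitor of NF-kB, fell by 1.35 (adjusted p = 0.0130) and SOD2 by 1.29 (adjusted p = 0.00251). The subunit RELA fell by 0.39 (adjusted p = 0.0349, 0.149 at most with 1 array left out), and NFKB1 did not pass (-0.35, adjusted p = 0.0702). CXCL8 (-0.39) and IL6 (-0.28) did not pass either. Without shTSC2-adapted array 1 the count of 11 was 6, and without shTSC2-adapted array 2 it was 4.

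Acute phase genes held the largest falls of all. SAA2, a serum amyloid protein, read 10.31 and 8.69 in shTSC2, 6.60 and 6.38 in shTSC2-adapted and 6.34 and 6.47 in control (-3.01, SE 0.44, adjusted p = 0.00653). SAA1 read 8.13 and 6.76 against 4.41 and 4.86 (-2.81, SE 0.39, adjusted p = 0.00576, 0.0502 without shTSC2-adapted array 1). These 2 genes are near-identical, so they may not be separate readings, and a second probe set of SAA2 gave -0.95 (adjusted p = 0.0894). C3, the central complement protein, fell from 7.95 and 6.98 to 5.32 and 5.15 (-2.23, SE 0.28, adjusted p = 0.00425). For all 3 genes shTSC2 array 1 read higher than shTSC2 array 2, and the adapted arrays stayed below both. The adapted readings of SAA1, at 4.41 and 4.86, lay near the 4.40 quartile given above, which leaves the size of its fall uncertain. With dim genes left out 4 of the 17 acute phase and complement genes tested remained, and SAA1 and C3 were not among them. Of 17 acute phase and complement genes 6 were called lower and 0 higher by limma (6 and 0 at an unadjusted p under 0.05), and 3 were called lower without shTSC2-adapted array 1.

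Class I antigen processing fell as well: 6 of 12 tested genes were called lower and 0 higher by limma (9 and 0 at an unadjusted p under 0.05), with a median of -0.59. TAP1, which carries peptides into the endoplasmic reticulum, read 11.07 and 10.81 in shTSC2, 9.51 and 9.42 in shTSC2-adapted and 8.93 and 9.01 in control (-1.48, SE 0.12, adjusted p = 0.00111). The immunoproteasome subunit PSMB9 fell from 9.39 and 8.79 to 7.77 and 7.63 (-1.39, SE 0.19, adjusted p = 0.00537), and B2M, the light chain of class I molecules, from 11.31 and 11.17 to 10.49 and 10.34 (-0.82, SE 0.11, adjusted p = 0.00518). Other probe sets of TAP1, PSMB8 and PSMB9 held identical values and are no separate check. IRF1, an interferon-induced factor that drives class I genes, fell from 8.38 and 7.82 to 6.76 and 6.95 (-1.25, SE 0.19, adjusted p = 0.00719, 0.0566 without shTSC2-adapted array 1). The classical interferon-stimulated genes showed no common shift: of 41 tested 3 were called higher and 1, IRF1, lower, with a median of 0.02. These counts changed with the array left out. With dim genes left out 15 of the 41 remained, of which 0 were called higher and 2 lower, while 11 of the 12 class I genes remained. A fall would be hard to see in the dim interferon-stimulated genes, so the 2 lists are not a like comparison. IFIT1 rose from 5.61 and 5.15 to 6.44 and 6.55 (1.11, adjusted p = 0.0100, 0.0625 at most with 1 adapted array left out), while ISG15 differed by -0.01 and MX1 by 0.18.

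Immediate early genes, which respond to growth factor and stress kinases within minutes, were listed together with feedback genes of MAPK signalling. Of these 31 genes 9 were called lower and 2 higher, with a median of -0.18. FOS read 9.35 and 7.93 in shTSC2 against 7.04 and 6.24, with control at 6.26 and 6.39; it fell by 2.00 (SE 0.43, adjusted p = 0.0259). The shTSC2 arrays differed widely, and the call was lost without either adapted array or either control array (adjusted p up to 0.134). FOSB fell from 7.38 and 7.31 to 5.87 and 6.24 (-1.29, SE 0.14, adjusted p = 0.00291), and RGS2, a damper of G protein signalling, from 8.16 and 7.78 to 6.24 and 6.33 (-1.69, SE 0.15, adjusted p = 0.00187). KLF4 fell by 0.92 (adjusted p = 0.00282) and the phosphatase DUSP10 by 1.13 (adjusted p = 0.00343). EGR1 (-0.18), JUN (-0.28), DUSP6 (-0.15) and MYC (-0.12, adjusted p = 0.602) did not pass, and the phosphatase DUSP1 rose by 0.70 (adjusted p = 0.0251, up to 0.123 with 1 array left out). Without shTSC2-adapted array 2 the count of 9 was 5. The chemokine receptor CXCR4, outside these lists, fell from 8.03 and 7.92 to 6.01 and 6.43, with control at 6.54 and 6.59 (-1.75, SE 0.14, adjusted p = 0.00121).

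**Figure D4:**
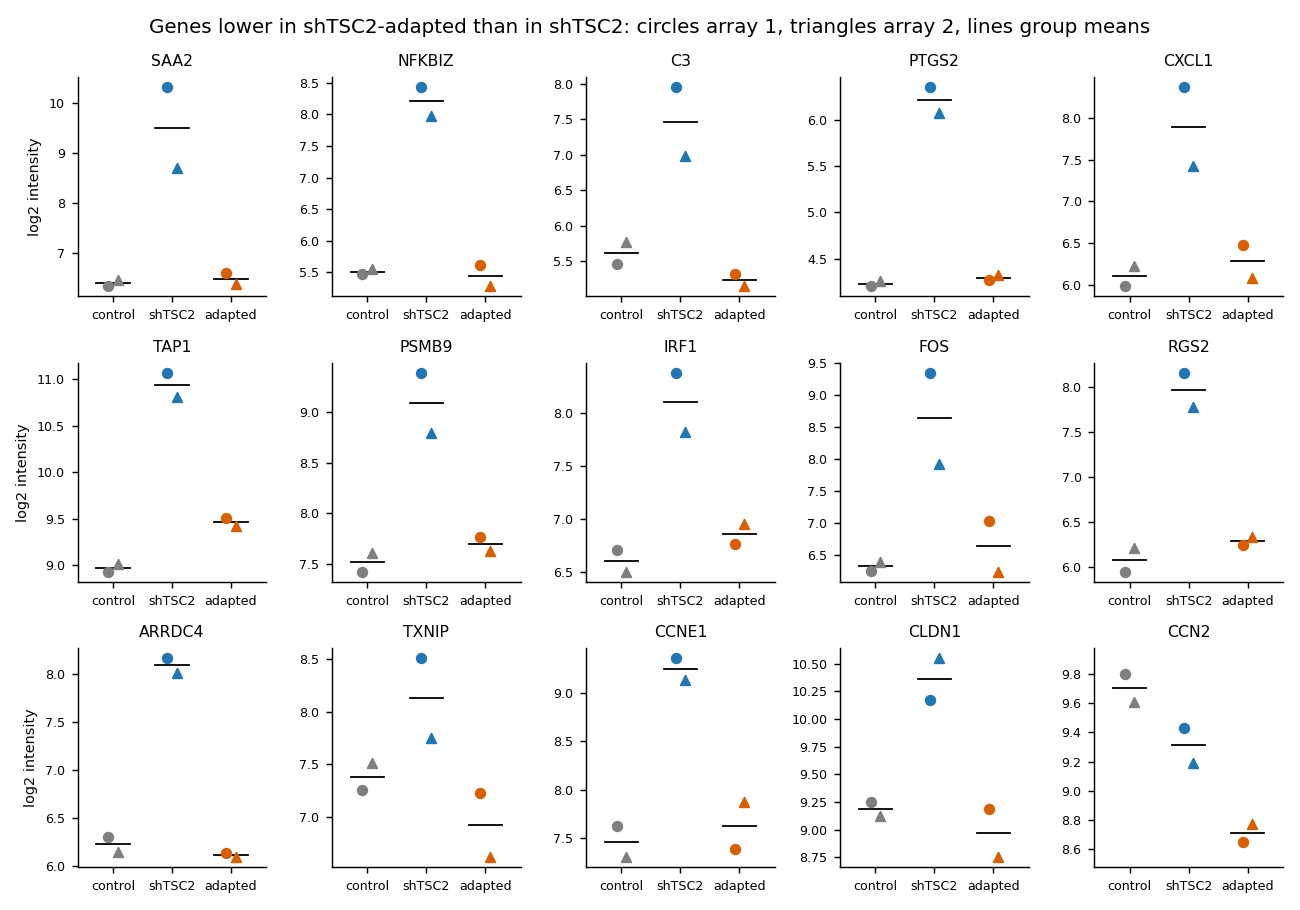
Log2 intensity on each of the 6 arrays for 15 genes that were lower in shTSC2-adapted than in shTSC2 (control grey, shTSC2 blue, shTSC2-adapted orange; circles are array 1, triangles array 2, lines group means, and y axes differ between genes). For NFKBIZ and ARRDC4 the adapted arrays sit beside control (NFKBIZ 5.62 and 5.28 against 5.47 and 5.55), for TAP1 above it, and for CCN2 below it.

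Epithelial adhesion genes changed in both directions. CDH1, E-cadherin, which joins epithelial cells, read 5.65 and 5.54 in shTSC2, 7.54 and 6.73 in shTSC2-adapted and 5.67 and 5.80 in control. Only the adapted arrays stood apart, 1.54 above shTSC2 (SE 0.23, adjusted p = 0.00756), and the difference of 1.40 from control did not pass (adjusted p = 0.0680). EPCAM read 6.06 and 7.04 against 7.97 and 8.42 (1.65, adjusted p = 0.0173, 0.0992 at most with 1 adapted array left out), and its other probe set rose by 1.54 (adjusted p = 0.00124). The keratin KRT19 rose from 6.97 and 6.98 to 8.93 and 8.12 (1.55, SE 0.24, adjusted p = 0.00772). Control read 8.47 and 8.24 for KRT19 and 8.06 and 7.61 for EPCAM, so the adapted readings of both overlapped control. On the other EPCAM probe set the adapted arrays, at 7.92 and 7.95, lay above control at 7.23 and 7.24. SNAI1, a repressor of CDH1, fell by 1.00, from 6.53 and 5.98 to 5.37 and 5.15 (adjusted p = 0.0136, 0.0792 at most with 1 adapted array left out). The mesenchymal repressor ZEB1, however, rose by 0.58 (adjusted p = 0.0232, up to 0.125 with 1 array left out), VIM did not pass (-0.33, adjusted p = 0.129), and the tight junction gene CLDN1 fell from 10.17 and 10.55 to 9.19 and 8.75 (-1.39, SE 0.18, adjusted p = 0.00441). DSC3, a desmosomal cadherin that is not in the list counted next, fell from 8.20 and 8.91 to 6.54 and 7.51 (-1.53, SE 0.33, adjusted p = 0.0244). The call of DSC3 was lost when some single arrays were left out. Over 33 genes of the epithelial-mesenchymal state 8 were called higher and 2 lower, with a median of 0.05 (2 to 9 higher with 1 array left out). Of 49 matrix, integrin and protease genes 1 rose and 1 fell: thrombospondin THBS1 read 10.91 and 11.14 against 9.60 and 10.20 (-1.13, SE 0.19, adjusted p = 0.0110).

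In all, 10 genes were called in the same direction against both other groups with both adapted arrays outside the range of the other 4. Both comparisons use the adapted arrays, so nothing is read from their overlap. These were 7 higher (0.0380% of genes) and 3 lower (0.0163%). Besides SLC2A3 and RRAGD the higher genes were MS4A15, MUC1, KLB, VXN and NPAS2. MUC1, a cell surface mucin, read 9.54 and 9.24 in shTSC2, 10.10 and 10.05 in shTSC2-adapted and 8.89 and 9.17 in control. KLB, the co-receptor of endocrine FGFs, read 5.51 and 5.37 against 6.44 and 6.19, with control at 5.24 and 5.39 (0.87 over shTSC2, adjusted p = 0.00576). The clock factor NPAS2 read 6.82 and 6.81 against 7.49 and 7.44, with control at 6.72 and 6.69 (0.65, adjusted p = 0.00551). The lower genes were CCN2, FAT4 and DPYD. CCN2, a matrix protein and target of YAP, read 9.43 and 9.19 against 8.65 and 8.77, with control at 9.80 and 9.61 (-0.60, adjusted p = 0.0218, up to 0.118 with 1 array left out). The atypical cadherin FAT4 read 6.33 and 6.29 against 5.49 and 5.72, with control at 6.69 and 6.76 (-0.71, adjusted p = 0.00792). DPYD, which breaks down pyrimidines, read 6.45 and 6.46 against 5.67 and 5.84, with control at 6.46 and 6.50 (-0.70, adjusted p = 0.00609). CCN1, the relative of CCN2 and another YAP target, went the other way (1.02, adjusted p = 0.0398, up to 0.192 with 1 array left out), and among 31 genes of the Hippo-YAP pathway 7 were called higher and 2 lower (0 to 6 higher with 1 array left out, and 2 higher under quantile normalization). The number of genes meeting the rule was 0 without either adapted or either control array, 28 without shTSC2 array 1 and 31 without shTSC2 array 2.

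In the lists of mitochondria, ribosomes and lysosomes most members did not pass, and the shares called lower were 7.25% for oxidative phosphorylation, 13.6% for lysosome and autophagy genes and 3.45% for ribosomal proteins, against 3.24% of all genes. Of 69 nuclear genes of oxidative phosphorylation 1 was called higher and 5 lower, with a median of -0.22 and 14 members above 0 (3 and 25 at an unadjusted p under 0.05). With 1 array left out between 0 (without shTSC2-adapted array 1) and 9 (without shTSC2 array 2) were called lower. UQCRQ of complex III fell by 0.68 (adjusted p = 0.0114, 0.0590 without shTSC2-adapted array 1) and NDUFV2 of complex I rose by 0.49 (adjusted p = 0.0211, up to 0.110 with 1 array left out). The calls for lower genes depended on the scaling: 15 were called lower under quantile normalization, 11 with arrays centred on their medians, and 1 with the trend over gene span removed (median then -0.14). Of 58 cytosolic ribosomal protein genes 2 rose and 2 fell, with a median of -0.04 (1 to 3 and 0 to 4 with 1 array left out). RPL10 rose by 0.80 (adjusted p = 0.00629) and RPL37A fell by 0.75 (adjusted p = 0.0138, 0.0736 without shTSC2-adapted array 2). Their many processed copies make single values uncertain. Among 39 genes of ribosome assembly 2 were called higher and 4 lower (0 to 4 and 0 to 3 with 1 array left out), and NOLC1, a nucleolar assembly factor, fell by 0.69 (adjusted p = 0.0153, 0.0816 without shTSC2-adapted array 1). Of 44 lysosome and autophagy genes 1 rose and 6 fell (1 to 8 fell with 1 array left out), among them the autophagy receptor SQSTM1, from 11.41 and 11.44 to 10.89 and 10.92 (-0.52, adjusted p = 0.0117, 0.0645 without shTSC2-adapted array 1). Of 16 BCL2 family genes 2 were called higher and 2 lower (12.5% each way, against 9.25% and 3.24% of all genes). The survival gene BCL2L1 rose by 0.67 (adjusted p = 0.00628). BCL2L11, which encodes the death-promoting BIM, fell from 6.96 and 6.97 to 6.02 and 6.13 (-0.89, adjusted p = 0.0107), a call lost without shTSC2-adapted array 1. BID also rose (adjusted p = 0.0430) and PMAIP1 also fell (adjusted p = 0.0402). Both of these calls were lost when some single arrays were left out, and that of BID under quantile normalization too.

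In the lists of cell type markers most members were not called. The shares called lower were 18.2% for neuroendocrine and 7.14% for lymphoid and myeloid markers, against 3.24% of all genes. In both of these lists 0 members stood above 0, with medians of -0.18 and -0.12 against -0.02 over all genes. Of the 11 neuroendocrine markers 8 lay below each array's median on all 4 arrays compared. Of 14 lymphoid and myeloid markers 11 lay below each array's median on all 4 arrays compared, 0 were called higher and 1, FCER1G, fell by 0.67 (adjusted p = 0.0342, up to 0.179 with 1 array left out). Their summed intensity was 850 to 858 in shTSC2 and 706 to 741 in shTSC2-adapted. The 14 fibroblast and endothelial markers summed to 517 to 529 against 528 to 532, with 0 called by limma (1 higher and 0 lower at an unadjusted p under 0.05). The 9 markers of an embryonic kidney packaging line summed to 596 to 706 against 600 to 777, with 0 called (0 and 2 at an unadjusted p under 0.05). Neuroendocrine markers summed to 1522 to 1535 against 1282 to 1363, and 2 of 11, SCG5 and SNAP25, fell by 0.58 and 0.50, of which 1 at most was called with 1 array left out. Luminal markers summed to 6036 to 6115 against 5897 to 6087 with 0 of 10 called (0 and 0 at an unadjusted p under 0.05), and basal markers to 2050 to 2186 against 2549 to 2672 with 1 of 9 called: DST, a cytoskeletal linker, rose by 0.97 (adjusted p = 0.0114, 0.0784 without shTSC2-adapted array 1). Of the 10 luminal markers 6 lay below each array's median on all 4 arrays compared, so their sum comes mostly from the brighter members. Luminal and basal markers are epithelial, as Du145 is, so these 2 sums do not measure cells of another kind. What part cells of another kind had in any result was not tested. On all 6 arrays the leukocyte gene PTPRC lay below the lower quartile of 4.40, and the endothelial gene PECAM1 lay above it at 4.83 to 4.95.

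The difference also followed the length of the gene. Across 16902 protein-coding genes the difference correlated with gene span, the distance from the gene's start to its end in the RefSeq table, at Spearman rho = 0.33. The 4 pairs of adapted with shTSC2 arrays gave 0.24 to 0.34, and pairs of arrays within a group 0.10 (control), 0.12 (shTSC2) and -0.06 (shTSC2-adapted). These points share arrays and probes, and genes are not independent. In the eighth of genes with the shortest spans (median 2.56 kb) the median difference was -0.09, with 2.56% of genes called higher and 4.54% lower. In the eighth with the longest spans (median 232 kb) it was 0.12, with 23.0% called higher and 0.615% lower. The median span was 72.5 kb for genes called higher, 13.8 kb for those called lower and 27.3 kb for all.

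**Figure D5:**
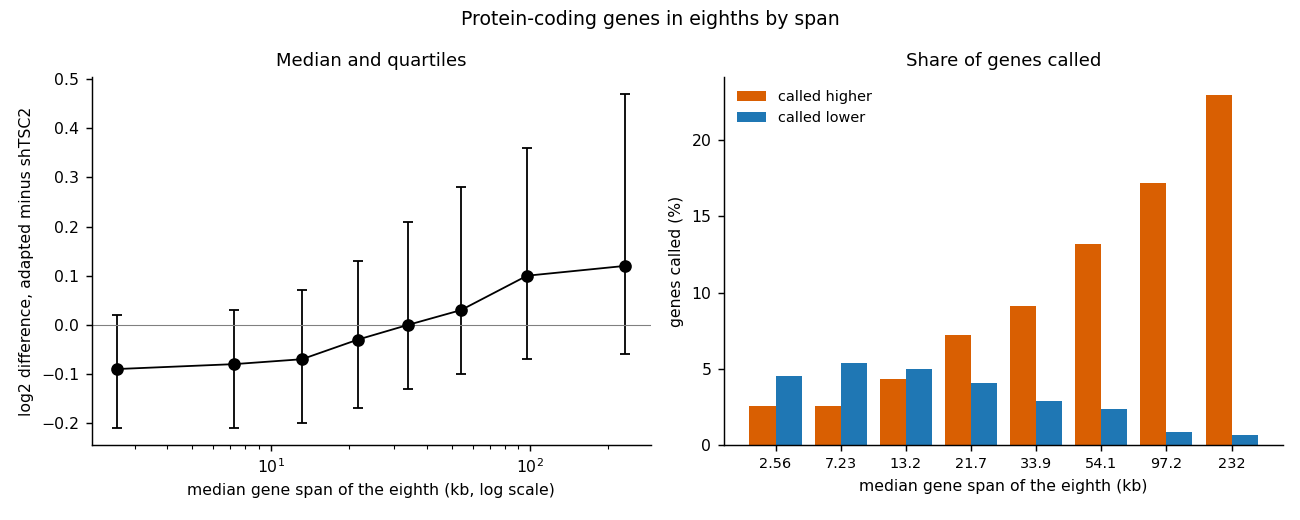
Protein-coding genes in 8 equal groups by gene span: on the left the median log2 difference, shTSC2-adapted minus shTSC2, with bars from the lower to the upper quartile, against the group's median span on a log scale, and on the right the percent of genes called higher (orange) and lower (blue). The median rises from -0.09 to 0.12 and the share called higher from 2.56% to 23.0% as spans grow from 2.56 to 232 kb.

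With a smooth trend over gene span removed from each array (rho -0.07 afterwards), 1344 genes were called higher and 521 lower. Of the lists described above, 31 of 38 mitosis genes, 20 of 40 histones, 16 of 25 sterol genes, 14 of 25 fatty acid genes and 10 of 19 synthetases were then called higher, and 10 of 34 NF-kB genes, 5 of 12 class I genes, 5 of 17 acute phase genes and 7 of 31 immediate early genes lower. The medians of the latter 4 lists moved towards 0 with the trend removed, from -0.34 to -0.24, from -0.59 to -0.53, from -0.21 to -0.09 and from -0.18 to -0.11. Among the lists that rose, the median went from 0.64 to 0.50 for fatty acid genes and from 0.82 to 0.79 for mitosis. It went from 0.58 to 0.66 for histones and from 0.95 to 1.06 for sterol genes, and stayed at 0.45 for synthetases. Of the 138 named genes that were called, 23 lost their call in that fit. The histones had a median span of 0.487 kb, and their median difference of 0.58 stood beside -0.09 in the eighth of genes with the shortest spans. What the trend reflects was not tested.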

How the data were processed

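RNA of 6 Du145 samples (control, shTSC2 and shTSC2-adapted, 2 arrays each) was measured on GeneChip whole-transcript arrays. The authors deposited intensity values on a linear scale, 1 per probe set and array, made with RMA per the submitters' processing notes; for its version and the array annotation build the sources used here give nothing. Median intensities ran from 58.1 to 63.1, and the small number of arrays limits the precision. The log2 of each intensity was taken. Of 33297 probe sets 19460 had 1 gene symbol in the platform annotation, 1754 several and 12083 none, and the set of highest mean was kept for each of 18417 genes (769 had more than 1). Gene IDs were matched to RefSeq for 19429 sets, and 0 symbols changed.

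The groups were compared with limma 3.58.1 (lmFit and eBayes) in R 4.3.3 on all 6 arrays, with 3 residual and 4.39 prior degrees of freedom and Benjamini-Hochberg adjustment, called at an adjusted p under 0.05. The code was tested on simulated data. The comparison's members and the gene lists were chosen with earlier results of these data known. Genes were named by rule: TSC2 and a set of regulators whatever their values, the 15 largest rises and 15 largest falls among called genes with well-described names, the 3 largest each way among called members of each of the 36 lists (or the extreme members of a list without calls), and the genes beyond both other groups. Alternatives were quantile normalization, median centring, no dim genes, every probe set, only the 4 arrays, the replicate number, array weights, a trended robust variance, removal of a loess trend over gene span (span 0.3), and leaving out each array. Promoter windows were those of RefSeq on GRCh38.p14.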

Additional observations from a re-analysis of the deposited data

How the results depend on the processing

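Of the 138 named genes that were called, 58 kept their call under every alternative that tested them, 80 lost it when at least 1 array was left out, and 0 reversed. With 1 array left out, that group's lone array was assumed to vary like the others. Genes called higher then ran from 690 to 1817, genes called lower from 147 to 893, and genes beyond both other groups from 0 to 31. Fitting only the 4 arrays compared gave 893 higher and 220 lower, and 5 synthetases. Genes called lower numbered 942 under quantile normalization. Whether the same replicate numbers pair the arrays cannot be told, as there were only 2 numbers. Deviations of arrays with the same number correlated at 0.21 between shTSC2 and shTSC2-adapted. They correlated at -0.10 between control and shTSC2 and at -0.19 between control and shTSC2-adapted. With the number as a replicate block 1565 genes were higher, 499 lower and 1 beyond both other groups, and 17 named genes lost their call. Array weights left 53 genes beyond both. Quantile normalization gave medians of 0.75 for mitosis, 0.10 for the ATF4 list and 0.40 for synthetases, and median centring 0.11 and 0.41 for the latter 2. With dim genes left out the medians were 1.38 for the 23 histones that remained and 0.20 for the 29 genes of the ATF4 list. Of the 4 acute phase genes that remained 2 were called lower, and of the 25 immediate early and MAPK feedback genes 5. Why these values moved was not tested, except that the fits without an array or without dim genes use fewer arrays or genes. With 1 array left out, list medians ran from 0.75 to 0.85 for mitosis (20 to 31 called higher), 0.43 to 1.00 for histones, 0.49 to 0.70 for fatty acid genes, 0.13 to 0.18 for the ATF4 list (5 to 10 called), 0.42 to 0.50 for synthetases (1 to 11 called), -0.45 to -0.18 for the NF-kB pathway (4 to 10 called lower), -0.41 to -0.01 for acute phase genes (3 to 6), -0.87 to -0.48 for class I genes and -0.31 to -0.02 for immediate early genes (5 to 10). Genes near or below the lower quartile of 4.40 are measured least well over background.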
